A study of Mus musculus with 12 samples.

Results

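In all, 10 genes of the Krueppel-like factor family were followed in cultured mouse oligodendrocyte precursor cells (OPCs): Klf2, Klf3, Klf4, Klf6, Klf7, Klf9, Klf10, Klf13, Klf15 and Klf16. They were taken as a list of symbols, drawn up with earlier results of these data known, and are 10 of the 55536 genes in the deposited tables. All 10 were found, and 9 passed the filter on low counts. Klf2 did not pass it, with 1 to 11 reads in each complete library.

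The cells were taken from the pooled brains of mouse pups at postnatal days 4 to 6, of the Sox10:Cre-RCE:LoxP(EGFP) line, in which Cre driven by Sox10 switches on GFP in the oligodendrocyte lineage. They were isolated by the GFP signal or by magnetic beads against CD140a, and the labels do not say which way was used for which sample. All groups were cultured with PDGFaa and bFGF. Ctr cultures received no further agent, Dexa cultures received the synthetic glucocorticoid dexamethasone (1 µM) and IFNg cultures received the cytokine IFN-γ (100 ng/ml), both over 48 h. Each group has 4 replicates from different litters. The replicate number was taken to mark the litter shared by a Ctr, a Dexa and an IFNg culture. A label on every sample names an experimental autoimmune encephalomyelitis mouse model, whereas the protocols describe these untransplanted cultures from pups.

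Total RNA was sequenced, and the 11 complete libraries held 19209063 to 52074667 reads assigned to genes. The table of Dexa replicate 3 ends after 33.7% of the transcripts and lists Klf6, Klf7, Klf10 and Klf16 whole among the Klf genes followed here. It entered no test over all genes, so Dexa has 3 libraries in the fits, and its values are given where they exist. The 8 OPC markers summed to 3739 to 13931 CPM (counts scaled to an equal library total) in the complete libraries, while the 6 microglial markers summed to at most 1.41 CPM and the 6 neuron markers to 14.7 to 25.9 CPM. The 6 endothelial markers summed to 4.16 to 6.19 CPM in Ctr, 5.88 to 11.4 CPM in Dexa and 3.05 to 4.54 CPM in IFNg, nearly all of it Flt1, called higher in Dexa, and Kdr, called lower in IFNg, since Cldn5, Pecam1, Cdh5 and Tek each averaged under 0.5 CPM in every group. The 6 mural and leptomeningeal markers summed to 3.70 to 6.48 CPM in Ctr, 5.55 to 9.38 CPM in Dexa and 14.9 to 19.3 CPM in IFNg. In IFNg against Ctr, 2 of the 6 were called higher (Acta2 and Lum) and 1 lower, where 15.1% and 15.9% of all tested genes were. The 6 oligodendrocyte markers summed to 215 to 843 CPM in Ctr, 241 to 894 CPM in Dexa and 151 to 385 CPM in IFNg. Their sum was lowest in replicate 1 of each group and lower in each IFNg culture than in the Ctr culture of its litter. Of these 6, 1 was called lower in IFNg against Ctr and 3 in IFNg against Dexa, where 15.9% and 16.7% of all tested genes were. The 6 astrocyte markers summed to 448 to 1747 CPM and moved with litter and group, as described beside Klf15. In RNA from whole cultures, fewer cells of a type and less RNA per cell cannot be told apart.

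Krueppel-like factors are transcription factors that bind GC-rich and CACC-type DNA through C2H2 zinc fingers at their C-terminal end. The N-terminal part differs between members: Klf9, Klf10, Klf13 and Klf16 bind the SIN3A co-repressor, Klf3 binds the CtBP co-repressors, and Klf2, Klf4, Klf6 and Klf7 are best known as activators. Klf9 and Klf15 are classical targets of the glucocorticoid receptor, Klf9 is also induced by thyroid hormone, which drives oligodendrocyte maturation, and Klf6 has been tied to gp130-STAT3 signalling in myelinating cells.

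The 250 bases before the start of 3 genes are shown, in the GRCm38.p6 build and from RefSeq: Klf9, the one member that edgeR called higher in Dexa, Klf6, with the largest called rise in IFNg, and Klf13, which lay on different sides of Ctr in the 2 treatments. Each sequence is written 5′ to 3′ on the strand of its gene. Capitals mark, in Klf9, first a CACC box and then the letters of a STAT element (TTCNNNGAA), in Klf6 a GC box and then an E-box (CACGTG), and in Klf13 GC boxes, the second of which runs on into a CACC box.
Klf9, chr19:23140976-23141225, plus strand: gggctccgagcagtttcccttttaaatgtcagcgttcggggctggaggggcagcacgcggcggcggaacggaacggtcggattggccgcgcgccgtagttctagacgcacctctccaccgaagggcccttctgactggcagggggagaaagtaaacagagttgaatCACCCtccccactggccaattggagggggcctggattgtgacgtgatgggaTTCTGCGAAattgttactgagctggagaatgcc
Klf6, chr13:5861239-5861488, plus strand: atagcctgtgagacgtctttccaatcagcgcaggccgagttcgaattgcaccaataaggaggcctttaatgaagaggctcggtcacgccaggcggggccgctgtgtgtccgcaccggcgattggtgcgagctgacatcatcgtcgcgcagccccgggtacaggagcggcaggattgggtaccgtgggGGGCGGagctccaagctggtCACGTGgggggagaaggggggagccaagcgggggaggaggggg
Klf13, chr7:63938916-63939165, minus strand: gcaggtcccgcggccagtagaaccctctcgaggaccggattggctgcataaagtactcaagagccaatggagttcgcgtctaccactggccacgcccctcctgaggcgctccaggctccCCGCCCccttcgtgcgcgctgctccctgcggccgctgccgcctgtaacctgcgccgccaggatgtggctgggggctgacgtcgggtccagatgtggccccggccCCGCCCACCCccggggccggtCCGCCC

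Promoters of 8 of the 10 genes were in the RefSeq table, those of Klf2, Klf3, Klf4, Klf6, Klf7, Klf9, Klf13 and Klf15. Their median GC content was 71.4%, beside 52.4% over all 32851 promoters. The GC box (GGGCGG on either strand) stood in 7 of the 8, all but Klf9, and in 32.7% of all promoters. The CACC box (CACCC on either strand) stood in 6 of the 8, all but Klf4 and Klf6, and in 52% of all promoters.
The letters of a STAT element (TTCNNNGAA, the same on both strands) were found in Klf9 alone among the 8, starting 33 bases before its start, and in 7.02% of all promoters. The E-box (CACGTG, the same on both strands) stood in Klf4, Klf6 and Klf15 and in 6.02% of all promoters. The palindromic glucocorticoid receptor element (both strands) was found in 0 of the 8 and in 0.387% of all promoters, and its half-site (AGAACA on either strand) in 0 of the 8 and in 16.1% of all. These are matches of letters in 250 bases, and GC-box and CACC-box matches can overlap, as they do in Klf13.

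**Figure D1:**
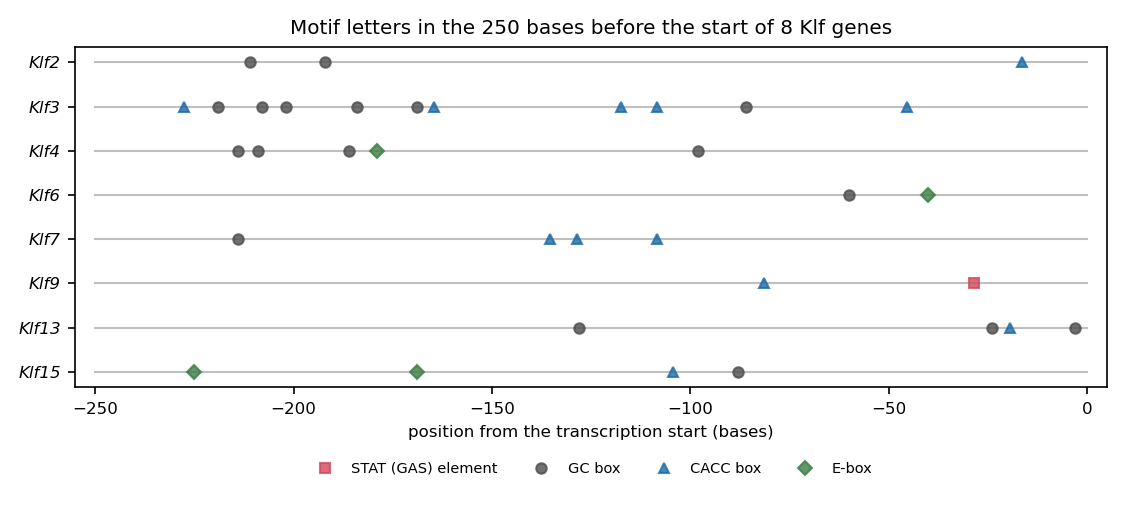
Matches to 4 motifs in the 250 bases before the start of 8 Klf genes, drawn at their distance from the start in bases, 1 line per gene and 1 symbol per match. Klf3 holds 6 GC boxes and 5 CACC boxes, while Klf9 holds 1 CACC box and, 33 bases before its start, the only STAT element match.

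Levels between genes were compared as TPM, in which reads are divided by transcript length and scaled to an equal total. In Ctr-OPCs the order was led by Klf12, a CtBP-binding member outside the list, at 17.5 ± 3.49 TPM (SD, n = 4). Klf6 followed at 15.3 ± 2.30 TPM, then Klf10 at 12.2 ± 2.95 TPM and Klf3 at 10.5 ± 2.13 TPM. A wide step separated these from Klf13 at 4.91 ± 0.523 TPM, since the libraries of Klf3 and Klf13 did not overlap. Klf15 stood at 4.12 ± 2.18 TPM, Klf7 at 3.65 ± 0.414 TPM, Klf16 at 2.92 ± 0.348 TPM and Klf9 at 2.87 ± 0.724 TPM. Neighbours in this order differed by more than the larger of their SDs between Klf6 and Klf10, Klf3 and Klf13, Klf7 and Klf16, and Klf9 and Klf11, whereas Klf12 and Klf6, Klf10 and Klf3, Klf13 and Klf15, Klf15 and Klf7, and Klf16 and Klf9 did not.
Klf4 (0.118 ± 0.0702 TPM) and Klf2 (0.0323 ± 0.0220 TPM), both endothelial and immune regulators in other tissues, were close to the limit of these libraries. Klf4 had 4 to 32 reads in each library.

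**Figure D2:**
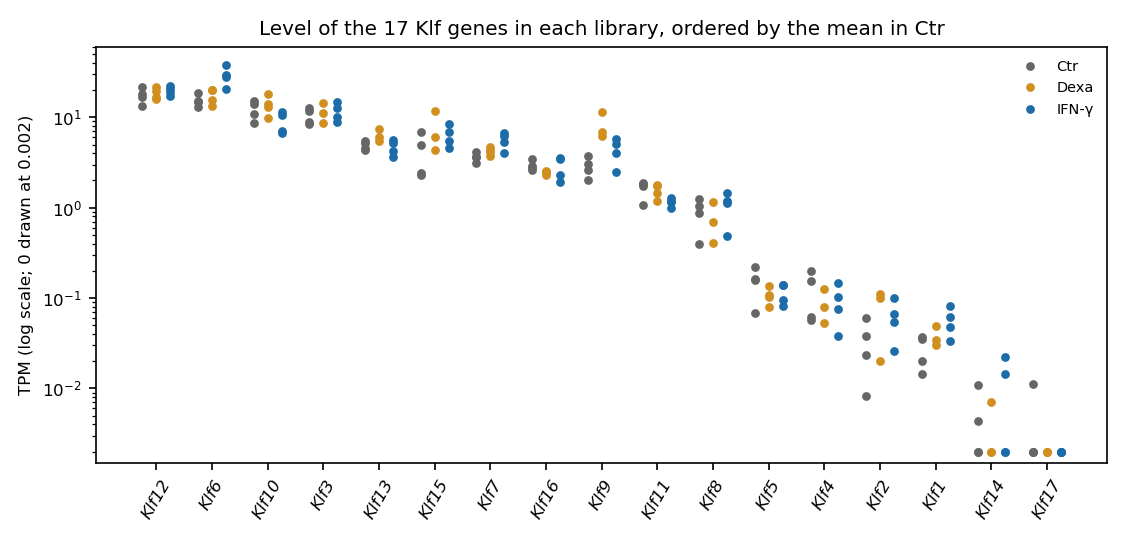
TPM on a log axis of the 17 Klf genes, ordered by their mean in Ctr; each point is 1 library, coloured by group, and a value of 0 is drawn at 0.002. Klf9 lies at 2.01 to 3.73 TPM in Ctr and at 6.17 to 11.4 TPM in Dexa, and the 8 genes from Klf12 to Klf16 lie above it in Ctr by their means.

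Klf9 moved from rank 9 in Ctr to rank 5 in Dexa, at 8.18 ± 2.85 TPM (n = 3), and to rank 8 in IFNg, at 4.32 ± 1.39 TPM (n = 4). Klf6 stood at rank 1 in both treatments, with 18.5 ± 2.43 TPM beside 17.4 ± 1.72 TPM for Klf12 in Dexa, a gap within the SD, and with 28.8 ± 7.03 TPM beside 19.7 ± 2.08 TPM in IFNg. Klf10 passed from rank 3 in Ctr and Dexa to rank 4 in IFNg, at 8.96 ± 2.46 TPM, where Klf3 stood at 11.7 ± 2.73 TPM.

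In all, 3 comparisons follow from the design: each treatment against Ctr, and IFNg against Dexa, which tests whether the treatments differ. Levels of one gene are given in CPM, and log2 fold changes (log2FC) come from edgeR's quasi-likelihood test with the litter as a block and Benjamini-Hochberg adjustment over 18386 genes. A gene is called at an adjusted p under 0.05. In IFNg against Ctr, 4 of the 9 tested Klf genes were called higher (Klf6, Klf7, Klf9, Klf15) where 15.1% of all tested genes were, and 2 were called lower (Klf10, Klf13) where 15.9% were. In Dexa against Ctr, Klf9 was the 1 gene called higher, where 1.24% of all genes were, and 0 were called lower by edgeR or by DESeq2 with the same block, where 0.256% were. At an unadjusted p under 0.05, 5 were higher and 1 was lower in Dexa. Many genes pass this looser threshold. Klf7, with a p of 0.0496 in Dexa (edgeR), had rank 1995 by p-value among all tested genes. Klf16, with a p of 0.0431 in IFNg against Ctr, had rank 7339, and Klf7, with 0.0420 in IFNg against Dexa, rank 7563 (edgeR). Later counts at this threshold are to be read beside these ranks. In IFNg against Dexa, 1 was called higher (Klf6), where 16.4% were, and 3 were called lower (Klf9, Klf10, Klf13), where 16.7% were. The median log2FC of the 9 was 0.03, 0.17 and -0.05 in these comparisons, and that of all tested genes was -0.03, -0.01 and -0.03.

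**Figure D3:**
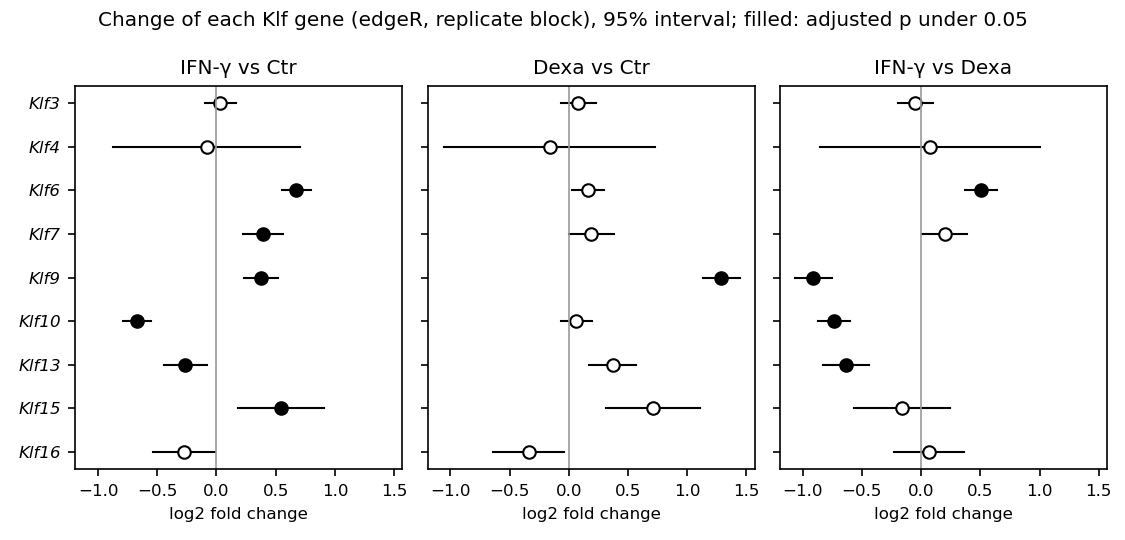
Log2 fold change with its 95% interval of 9 Klf genes in the 3 comparisons (edgeR, litter as a block); filled circles are called at an adjusted p under 0.05. Klf9 stands at 1.29 in Dexa against Ctr, apart from the other 8, and Klf6 and Klf10 lie on opposite sides of 0 in IFNg against Ctr, at 0.67 and -0.67.

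Klf9 (ENSMUSG00000033863, chr19:23141226-23168134, plus strand, GRCm38) is a transcriptional repressor induced by steroid and thyroid hormones. It was measured at 27.3, 19.6, 12.8 and 18.6 CPM in Ctr replicates 1 to 4. In Dexa replicates 1, 2 and 4 it was measured at 70.6, 49.8 and 40.7 CPM. Every Dexa library was above every Ctr library, and in both groups replicate 1 was the highest. The log2FC was 1.29 ± 0.07 (SE, 95% interval 1.13 to 1.44), a 2.44-fold rise found in 3 of 3 litters, with an adjusted p of 9.35e-06 (edgeR). By p-value it had rank 8 among all tested genes.
The per-litter ratios were 2.59, 2.54 and 2.19. Without the litter block edgeR gave a log2FC of 1.46 and an adjusted p of 0.158, whereas DESeq2 without the block still called it (log2FC 1.46, adjusted p = 0.0013).

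In IFNg-treated OPCs, Klf9 was measured at 34.2, 26.1, 16.7 and 24.3 CPM. The IFNg and Ctr libraries overlapped as groups, yet each IFNg library was above the Ctr library of its litter, by ratios of 1.25, 1.33, 1.31 and 1.31. This gave a log2FC of 0.38 ± 0.06 (adjusted p = 0.00128, edgeR), and without the block the adjusted p was 0.493. Against Dexa, Klf9 was lower in IFNg in 3 of 3 litters and the groups did not overlap (log2FC -0.91 ± 0.07, adjusted p = 5.52e-06, edgeR), a call also made without the block (adjusted p = 0.0424). Klf9-201, the coding transcript, held 98.9% of its reads.

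**Figure D4:**
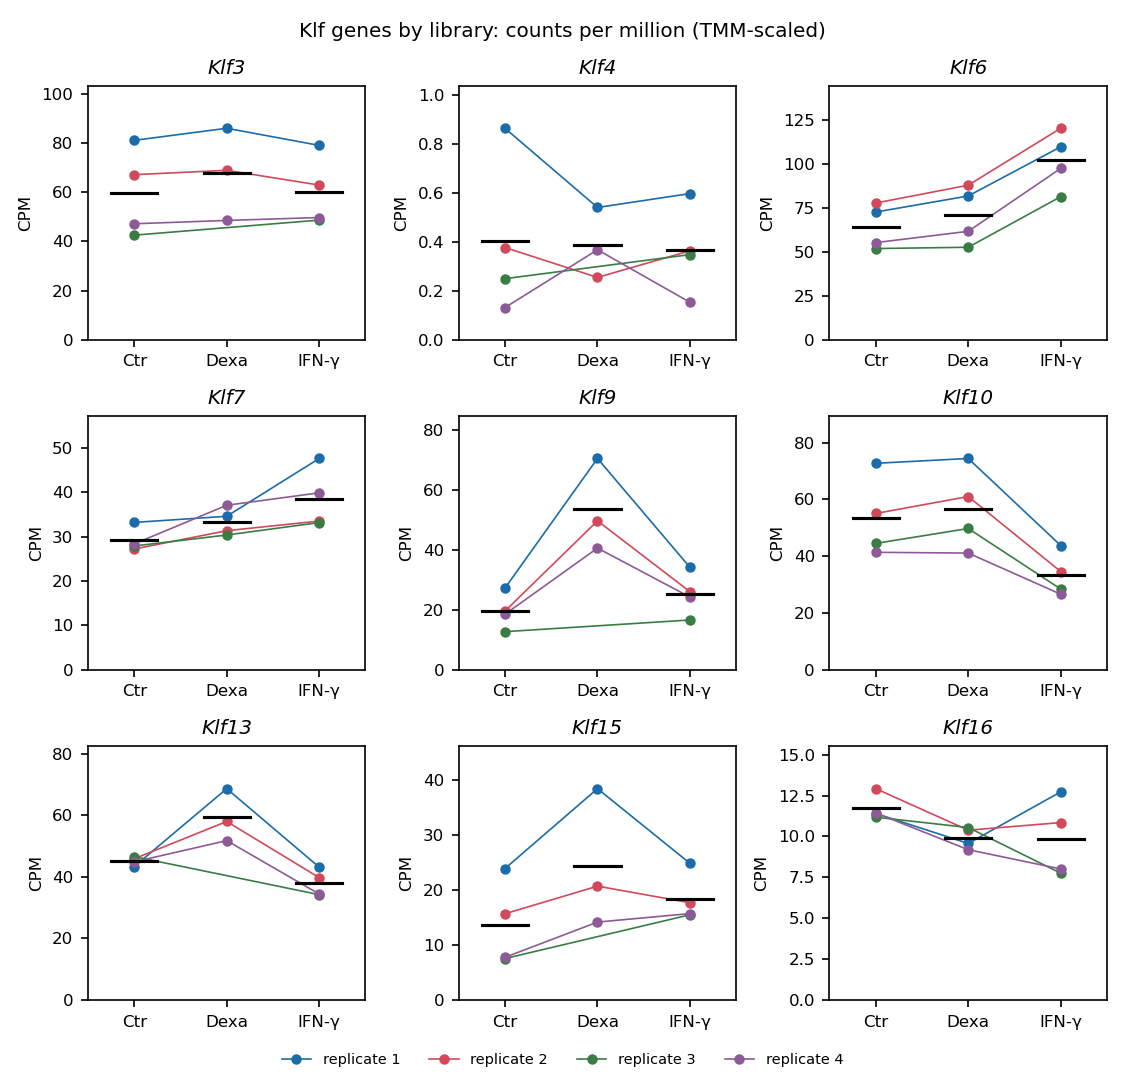
CPM of the 9 tested Klf genes in each library, on axes from 0; lines join cultures of one litter (replicate number) and black bars are group means. Klf9 peaks in Dexa in each litter measured there, Klf6 is highest in IFNg in all 4 litters, and Klf10 is lowest in IFNg in all 4. Dexa replicate 3 is shown for Klf6, Klf7, Klf10 and Klf16, whose transcripts it lists whole.

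Klf13 (ENSMUSG00000052040, chr7:63886351-63938915, minus strand), the closest relative of Klf9, was the steadiest member among untreated litters, at 43.4, 45.9, 46.6 and 44.9 CPM in Ctr. In Dexa it was measured at 68.7, 58.0 and 51.8 CPM in replicates 1, 2 and 4, and in IFNg at 43.2, 39.8, 34.2 and 34.5 CPM. All 3 Dexa libraries lay above Ctr and all 4 IFNg libraries below it, although the gap in IFNg was narrow, with replicate 1 nearly level with its own control at a ratio of 0.995. The direct comparison of the treatments gave the clearest value, a log2FC of -0.63 ± 0.09 in IFNg against Dexa (95% interval -0.83 to -0.44, adjusted p = 0.000388, edgeR), lower in 3 of 3 litters and called without the block too (adjusted p = 0.00437).
Against Ctr, the fall in IFNg was small (log2FC -0.26 ± 0.08, adjusted p = 0.031, edgeR), and without the block its adjusted p was 0.201. The call also ended when Ctr replicate 2 (adjusted p = 0.0885), 3 (0.130) or 4 (0.151), or IFNg replicate 2 (0.0537), 3 (0.160) or 4 (0.0731), was left out.
The value in Dexa against Ctr (log2FC 0.37 ± 0.09, adjusted p = 0.0892, edgeR) did not pass the threshold, but DESeq2 with the same block called it (adjusted p = 0.0144).

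Counting genes by libraries that do not overlap, Klf9 and Klf13 lay wholly above Ctr in Dexa and Klf16 wholly below it, where 2.54% and 1.84% of all tested genes did. In IFNg against Ctr, Klf6 lay wholly above and Klf13 wholly below, where 8.69% and 5.77% did. In IFNg against Dexa, 0 Klf genes lay wholly above and 2 wholly below (Klf9 and Klf13), where 11.0% and 8.63% did.

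Klf10 (ENSMUSG00000037465, chr15:38291463-38300706, minus strand), an early response gene of TGF-β and a repressor of the SIN3A-binding branch, fell in IFNg. It was measured at 72.7, 55.1, 44.5 and 41.4 CPM in Ctr and at 43.8, 34.6, 28.4 and 26.6 CPM in IFNg. The groups overlapped because litters differ by 1.76-fold within Ctr, but each litter fell by a like amount, with ratios of 0.602, 0.628, 0.639 and 0.644. The log2FC was -0.67 ± 0.05 (95% interval -0.79 to -0.55, adjusted p = 6.59e-06, edgeR).
Without the block the adjusted p was 0.120. In Dexa Klf10 was measured at 74.4, 61.0, 49.8 and 41.1 CPM in replicates 1 to 4, close to the Ctr cultures of the same litters (log2FC 0.06 ± 0.06, 95% interval -0.07 to 0.19, adjusted p = 0.761, edgeR). IFNg was below Dexa by a log2FC of -0.74 ± 0.06 (adjusted p = 8.39e-06, edgeR), in 4 of 4 litters, and without the block this call was lost (adjusted p = 0.0751). Among its transcripts Klf10-202 was assigned 0.00519% to 35.2% of the reads of a library, so that the split between its isoforms was unstable.

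Klf16 (ENSMUSG00000035397, chr10:80567124-80577321, minus strand), the last of the SIN3A-binding members, was measured at 11.4, 12.9, 11.2 and 11.4 CPM in Ctr. The 4 Dexa libraries read 9.57, 10.4, 10.5 and 9.19 CPM, all below Ctr, and the IFNg libraries 12.7, 10.9, 7.75 and 8.01 CPM, on both sides of it. Neither difference was called, with a log2FC of -0.34 ± 0.13 in Dexa (95% interval -0.64 to -0.04, adjusted p = 0.371) and of -0.27 ± 0.12 in IFNg (adjusted p = 0.108, both edgeR). In IFNg, replicate 1 was above its control and the other 3 below, and without IFNg replicate 1 the gene was called lower (log2FC -0.40, adjusted p = 0.00826).

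Klf6 (ENSMUSG00000000078, chr13:5861482-5870394, plus strand), an activator known as an early response gene after injury, showed the largest rise of the members in IFNg. It was measured at 72.5, 77.6, 51.7 and 55.1 CPM in Ctr and at 109.6, 120.1, 81.2 and 97.3 CPM in IFNg. Every IFNg library was above every Ctr library. The log2FC was 0.67 ± 0.05 (95% interval 0.55 to 0.80), a 1.60-fold rise in 4 of 4 litters with an adjusted p of 7.48e-06 (edgeR), and it was the only member called in IFNg against Ctr without the block by edgeR (adjusted p = 0.0375).
Dexa replicates 1 to 4 read 81.6, 87.7, 52.5 and 61.5 CPM, above their controls in 4 of 4 litters but by small amounts (log2FC 0.17 ± 0.06, 95% interval 0.03 to 0.30, adjusted p = 0.323, edgeR). IFNg exceeded Dexa by a log2FC of 0.51 ± 0.06 (adjusted p = 0.00014, edgeR) in 4 of 4 litters, and this call was lost without the block (adjusted p = 0.242). A transcript with a retained intron, Klf6-202, held 9.63% of the reads and Klf6-201, the coding one, 90.0%.

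Klf7 (ENSMUSG00000025959, chr1:64029447-64122282, minus strand), a relative of Klf6 known for its part in axon growth, was measured at 33.2, 27.2, 27.9 and 28.4 CPM in Ctr and at 47.6, 33.5, 33.2 and 39.9 CPM in IFNg. The lowest IFNg library, 33.2 CPM, met the highest Ctr library, so that the groups just overlapped while 4 of 4 litters rose. The log2FC was 0.39 ± 0.08 (adjusted p = 0.00308, edgeR), with an adjusted p of 0.0859 without the block. In Dexa it was measured at 34.6, 31.3, 30.4 and 37.1 CPM (log2FC 0.19 ± 0.09, adjusted p = 0.457, edgeR), and the difference between IFNg and Dexa was not called (log2FC 0.20 ± 0.09, 95% interval 0.01 to 0.39, adjusted p = 0.102, edgeR).

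The remaining activators were scarce. Klf4 (ENSMUSG00000003032, chr4:55527143-55532466, minus strand) ranged over 0.131 to 0.865 CPM in Ctr, 0.254 to 0.541 CPM in Dexa and 0.153 to 0.597 CPM in IFNg. Its intervals were wide (log2FC -0.08, 95% interval -0.87 to 0.70 in IFNg, and -0.16, -1.05 to 0.73 in Dexa), so that a change of the size seen for Klf6 was not detectable at this depth. Klf2 (ENSMUSG00000055148, chr8:72319033-72321656, plus strand) was not tested, and its libraries ranged over 0.0208 to 0.151 CPM in Ctr, 0.0525 to 0.286 CPM in Dexa and 0.0695 to 0.239 CPM in IFNg, which overlapped.

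Klf3 (ENSMUSG00000029178, chr5:64803388-64832901, plus strand), the CtBP-binding repressor of the list, was abundant and was called in neither treatment. It was measured at 81.2, 67.2, 42.6 and 47.2 CPM in Ctr, at 86.1, 69.0 and 48.6 CPM in Dexa replicates 1, 2 and 4, and at 79.2, 63.0, 48.7 and 49.8 CPM in IFNg. Litters 1 and 2 were high and litters 3 and 4 low in each group that measured them. The intervals bounded any change in these cultures tightly, at a log2FC of 0.03 in IFNg (95% interval -0.10 to 0.16, adjusted p = 0.713) and of 0.08 in Dexa (-0.06 to 0.23, adjusted p = 0.71, both edgeR). It is overlapped by 2 genes, C230096K16Rik on the same strand with 1376 reads over the complete libraries and Gm20033 on the other strand with 292.

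Klf15 (ENSMUSG00000030087, chr6:90462576-90475238, plus strand), a glucocorticoid target that governs amino acid and glucose metabolism in liver and muscle, varied most among Ctr litters of the members other than the scarce Klf2 and Klf4. It was measured at 23.9, 15.7, 7.54 and 7.77 CPM in Ctr, a 3.17-fold range, against 1.07-fold for Klf13. In Dexa replicates 1, 2 and 4 it was measured at 38.4, 20.7 and 14.2 CPM, and in IFNg replicates 1 to 4 at 24.9, 17.7, 15.5 and 15.7 CPM. All 3 Dexa cultures and all 4 IFNg cultures were above the Ctr culture of their litter, while the groups overlapped.
In IFNg the ratios to the same litter were 1.04, 1.13, 2.06 and 2.02, so that the rise lay in litters 3 and 4. The log2FC was 0.54 ± 0.16 (95% interval 0.18 to 0.91, adjusted p = 0.0289, edgeR), and the adjusted p was 0.623 without the block. The call ended when Ctr replicate 3 (adjusted p = 0.128) or 4 (0.0931), or IFNg replicate 3 (0.116) or 4 (0.0855), was left out.
In Dexa the log2FC was 0.71 ± 0.18 (95% interval 0.31 to 1.10), which edgeR did not call (adjusted p = 0.111) and DESeq2 with the same block did (adjusted p = 0.00629). It was called by edgeR when IFNg replicate 1 was left out of the shared fit (adjusted p = 0.0346). IFNg and Dexa were not told apart for Klf15 (log2FC -0.16 ± 0.18, 95% interval -0.57 to 0.24, adjusted p = 0.538, edgeR). Klf15-204, which starts at position 90466400, held 81.0% of its reads and Klf15-201, which starts at 90462576 where the RefSeq promoter ends, 13.3%.

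The litter pattern was shared by several members. Of the 9 tested Klf genes, 6 were highest in replicate 1 in Ctr, 6 in Dexa (among replicates 1, 2 and 4) and 8 in IFNg. The share of all tested genes highest in replicate 1 was not counted. The OPC markers went the other way in Ctr, with summed levels of 5374 CPM in replicate 1 and 9221, 12670 and 12217 CPM in replicates 2 to 4. The astrocyte markers (Gfap, Aqp4, Slc1a3, Aldh1l1, Gja1, Aldoc) summed to 1373, 1114, 448 and 720 CPM in Ctr, to 1747, 1502 and 994 CPM in Dexa replicates 1, 2 and 4, and to 1442, 1250, 949 and 1261 CPM in IFNg. Their sum was thus highest in replicate 1 in each group and higher in each treated culture than in the Ctr culture of its litter. Klf15 and Klf9 shared these directions. In IFNg against Ctr the astrocyte sum was nearly level in litter 1 and rose most in litters 3 and 4. The Klf15 ratios to Ctr were also largest in litters 3 and 4, at 1.04, 1.13, 2.06 and 2.02 in litters 1 to 4. Those of Klf9 ran only from 1.25 to 1.33.
Of the 6 astrocyte markers, 3 were called higher and 2 lower in IFNg (Gfap by a log2FC of 3.98 ± 0.37 and Aldoc by 0.87 ± 0.15, Gja1 by -0.37 ± 0.07), and 1 was called higher in Dexa (Aldoc, 0.98 ± 0.17). Of the 8 OPC markers, 6 were called lower in IFNg, among them C1ql1 (log2FC -2.35 ± 0.15), Gpr17 (-2.10 ± 0.16) and Sox10 (-0.57 ± 0.07), and 1 was called higher in Dexa (Cspg4, 0.65 ± 0.09), none of which edgeR called without the block except Gfap. Of all tested genes, 15.1% were called higher and 15.9% lower in IFNg against Ctr, and 1.24% and 0.256% in Dexa against Ctr. The part of cell composition in the Klf values was not tested.

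In the rest of the family, 4 of 7 genes were tested. Klf11, the closest relative of Klf10, was measured at 7.29, 9.21, 10.9 and 11.4 CPM in Ctr and at 5.32, 4.44, 5.77 and 6.30 CPM in IFNg, without overlap (log2FC -0.82 ± 0.12, adjusted p = 0.000491, edgeR, and 0.0222 without the block). It was lower in IFNg than in Dexa too (log2FC -0.75 ± 0.13, adjusted p = 0.00173, edgeR), a call lost without the block (adjusted p = 0.0587). Klf5, Klf8 and Klf12 were called in 0 of the 3 comparisons by edgeR or DESeq2, with 0 at an unadjusted p under 0.05, and Klf12 kept a narrow interval (log2FC 0.08 in IFNg, 95% interval -0.06 to 0.21). The related Sp factors bind the same GC boxes, and of the 5 tested, Sp1, Sp2, Sp3, Sp4 and Sp6, 0 were called in any comparison by edgeR or DESeq2, and 1 had an unadjusted p under 0.05, in IFNg against Dexa. Sp1 was at 139.9 ± 5.30 CPM in Ctr and at 140.0 ± 9.84 CPM in IFNg (log2FC -0.00056, 95% interval -0.11 to 0.11).

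Klf proteins act through co-repressors and co-activators. Of 10 co-repressor genes, 2 were called higher in IFNg, close to the 15.1% of all tested genes, the deacetylase Hdac1 (log2FC 0.27 ± 0.05, adjusted p = 0.00158) and the SIN3A-complex subunit Sap30 (0.38 ± 0.11, adjusted p = 0.0228). Of 5 co-activators, the acetyltransferase Kat2b was called higher in IFNg (0.60 ± 0.07, adjusted p = 0.000135). Crebbp (-0.18 ± 0.05, adjusted p = 0.0295) and Ep300 (-0.16 ± 0.05, adjusted p = 0.0364) were called lower, where 15.9% of all tested genes were. Of these 15 genes, 0 were called in Dexa by edgeR or DESeq2, and 1 co-repressor gene was lower there at an unadjusted p under 0.05. Kat2b alone was called by edgeR without the block, at an adjusted p of 0.00203.

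Upstream of Klf9 and Klf15, the glucocorticoid receptor gene Nr3c1 was at 94.4 ± 3.78 CPM in Ctr, 84.8 ± 6.29 CPM in Dexa and 83.4 ± 7.33 CPM in IFNg, and was called in 0 of the 3 comparisons (adjusted p = 0.0539 in IFNg against Ctr, edgeR). Of 6 nuclear receptor genes, 0 were called in Dexa by edgeR, 3 had an unadjusted p under 0.05 there, and DESeq2 with the block called 1 (Thra, higher). In IFNg the mineralocorticoid receptor gene Nr3c2, which also binds glucocorticoids, was called higher (log2FC 2.12 ± 0.30, adjusted p = 0.000396), and the thyroid hormone receptor gene Thra (-0.58 ± 0.07, adjusted p = 0.00017) and its partner Rxrb (-0.25 ± 0.08, adjusted p = 0.0346) were called lower. Of all tested genes, 15.1% were called higher and 15.9% lower in IFNg. Without the block edgeR gave Nr3c2 an adjusted p of 0.0014, Thra of 0.0825 and Rxrb of 0.143.
Among 14 glucocorticoid-responsive genes, the median log2FC in Dexa was 0.91. Of these, 8 were called higher in Dexa and 0 lower, where 1.24% and 0.256% of all tested genes were. They included Fkbp5, which encodes a chaperone of the receptor (log2FC 1.41 ± 0.06, adjusted p = 3.47e-06), the clock gene Per1 (1.60 ± 0.07, adjusted p = 3.47e-06) and the transcription factor gene Zbtb16 (1.39 ± 0.08, adjusted p = 1.87e-05), values near that of Klf9. Without the block 4 of the 14 were called. In IFNg 3 of the 14 were called higher and 4 lower, where 15.1% and 15.9% of all tested genes were.

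The gp130-STAT3 route, known upstream of Klf6, was called higher in IFNg for 5 of 7 genes, where 15.1% of all tested genes were. Its median log2FC in IFNg was 1.15. In Dexa it was called for 0 by edgeR or DESeq2, with 2 at an unadjusted p under 0.05. Stat3 rose from 177.9 ± 20.5 to 603.4 ± 42.2 CPM (log2FC 1.77 ± 0.06), Jak2 by a log2FC of 1.15 ± 0.06, Socs3, a feedback inhibitor, by 1.40 ± 0.09, and Lifr, a receptor chain that pairs with gp130, by 1.36 ± 0.10. The same 5 genes were called without the block. IFN-γ itself signals through Jak1 and Jak2, so that this list holds genes of its own pathway.
Of 10 immediate early genes, to which Klf6 and Klf10 are often added, 5 were called higher in IFNg, where 15.1% of all tested genes were. In IFNg 2 were called lower, close to the 15.9% of all tested genes. In Dexa edgeR called 0, 2 were higher at an unadjusted p under 0.05, and DESeq2 with the block called 1 (Egr1, higher). Jun rose by a log2FC of 1.55 ± 0.10, Atf3 by 3.57 ± 0.24 and Egr2 by 1.64 ± 0.17, while Nr4a1 fell (log2FC -0.64 ± 0.08). Both directions were found among the called genes in IFNg, as for Klf6 and Klf10, but the count of falls was close to the share over all genes.

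The TGF-β route to Klf10 had 0 of 8 tested genes called in IFNg or in Dexa against Ctr by edgeR or DESeq2, with 2 in IFNg and 0 in Dexa at an unadjusted p under 0.05. The ERK5-MEF2 route, which drives Klf2 and Klf4 in endothelium, had 1 of 8 called higher in IFNg (Mef2b), where 15.1% of all tested genes were, and 3 lower, where 15.9% were, Mapk7, which encodes ERK5 (log2FC -0.36 ± 0.08), Map2k5 (-0.37 ± 0.08) and Mef2d (-0.34 ± 0.07), of which edgeR called 0 without the block. Of 6 tested amino acid and muscle-type targets of KLF15, 1 was called lower in IFNg, where 15.9% of all tested genes were. It was the glutamine synthetase gene Glul (log2FC -0.37 ± 0.11, adjusted p = 0.0294, and 0.320 without the block). In Dexa edgeR called 0 of them. There Glul had a log2FC of 0.58 ± 0.12 (adjusted p = 0.0505, edgeR), and DESeq2 with the block called it higher.

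Across the 11 complete libraries, the genes whose log2 CPM followed Klf9 most closely by Pearson's r were Selenop (0.956), Rcan2 (0.951), Fndc5 (0.951), Sdc4 (0.948) and Kcnn2 (0.943). All 5 were called higher in Dexa, where 1.24% of all tested genes were. The log2FC was 2.30 for Selenop, 2.14 for Rcan2, 0.70 for Fndc5, 1.31 for Sdc4 and 1.61 for Kcnn2. Rcan2 alone of them was called in IFNg (log2FC 0.75, adjusted p = 0.000892, edgeR). Those most like Klf15 were Cdh20 (0.964), Adora1 (0.961), Rab31 (0.957), Ccdc157 (0.946) and Lpar6 (0.945). Of these, Cdh20 and Adora1 were called higher in both treatments, Lpar6 in IFNg, and Rab31 and Ccdc157 in neither. These correlations describe 11 libraries that share litters and groups, and carry no test. The genes were picked for likeness to Klf9 or Klf15 over the same libraries that gave the calls. Calls in the same direction thus follow in part from the choice and are no separate result.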

How the data were processed

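The authors trimmed the reads of total RNA libraries from cultured mouse OPCs and quantified transcripts with Salmon (version 0.8.2 in the submitters' processing notes). The deposited tables give per transcript an estimated count and a TPM value, and its options are not given in the sources used here. Their transcript names matched GENCODE mouse release M21 (Ensembl 96, GRCm38), with 0 transcripts left without a gene. The fold changes and p-values that the authors computed with DESeq2 stand in further tables, which were not used.

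Estimated counts were summed per gene and rounded. The 18386 genes that reached 10 counts in 3 or more of the 11 complete libraries were fitted with edgeR 4.0.16 in R 4.3.3: TMM scaling, quasi-likelihood test, all 3 groups in one fit, and the replicate number as a block. CPM are TMM-scaled, and those of the incomplete Dexa replicate 3 were scaled over the genes it lists whole. SE is the log2FC over the square root of F.

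The block was used because replicates came from different litters. Deviations from the group means correlated at 0.472 to 0.833 in all 10 pairs of libraries with the same number, and at -0.762 to 0.646 in pairs with different numbers. No pair of replicates agreed within sampling noise (chi-square per degree of freedom of at least 23.7). Counts for 18386 genes were simulated from the means, litter effects and spread of this fit, with 200 genes changed in IFNg against Ctr. By medians over 4 draws, 95% of 2-fold and 100% of 4-fold changes were called, and 7.4% of the calls were false. The median count of genes called in an unchanged Dexa arm was 0. The changed genes were drawn from those at higher levels, which leaves out Klf4. Changes under 2-fold, the size of most Klf changes here, were not simulated. DESeq2 1.42.0, fits without the block, RLE scaling, other filters, an offset for effective length, fits of only 2 groups, all 12 libraries over the genes listed whole, and each library left out in turn were the 20 alternatives.

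All 10 listed Klf genes are named, with those of the remaining Klf and Sp families that passed the filter, up to 4 called genes of each other list by p-value in each comparison, Nr3c1 and Glul in Dexa as additions after their values were seen, and the 5 genes most like Klf9 and Klf15. The members and the gene lists were chosen with earlier results of these data known. Motifs were searched in RefSeq promoter sequences (GRCm38.p6). Intervals cover counting error and the spread that remains after the block, and leave out level differences between litters. Since reads carry no molecular identifiers, copies made by PCR count as reads.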

Additional observations from a re-analysis of the deposited data

Results flagged for a closer look

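Of 24 sets of 4 libraries screened (the Klf genes by group), 1 held a library far from the others. Klf16 in Ctr replicate 2 was at 12.9 CPM, where the other 3 Ctr libraries were at 11.2 to 11.4 CPM, a gap of 0.851 of the whole range. Chance flags about 1 in 20 sets. Without this library the log2FC of Klf16 kept its direction in Dexa and in IFNg against Ctr.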

How the results depend on the processing

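The replicate block decided most of the calls. With it, 15.1% of the genes tested were called higher and 15.9% lower in IFNg against Ctr, 1.24% and 0.256% in Dexa against Ctr, and 16.4% and 16.7% in IFNg against Dexa. Without the block, edgeR called 5.96% and 2.49% (1096 and 458 genes) in IFNg against Ctr, 0.125% and 0.00544% (23 genes and 1 gene) in Dexa against Ctr, and 5.46% and 3.12% in IFNg against Dexa, and DESeq2 called 7.96% and 4.70%, 0.511% and 0.0326%, and 7.61% and 5.29%. The Klf genes called without the block were 1 higher and 0 lower in IFNg against Ctr by edgeR (2 and 0 by DESeq2), 0 higher in Dexa against Ctr by edgeR (1, Klf9, by DESeq2), and in IFNg against Dexa 0 higher by either and 2 lower by edgeR (3 by DESeq2). Samples were paired because each replicate number was taken as a litter.

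In Dexa against Ctr, DESeq2 with the block called 1.99% of genes higher and 0.495% lower (365 and 91), 3 Klf genes higher. Without a filter the shares were 1.34% and 0.591% of more genes tested (447 and 198), with 3 Klf genes, and when only the 2 groups compared were fitted they were 4.25% and 3.58% (782 and 659), with 4. The fit of only 2 groups also called 1 Klf gene lower in IFNg against Ctr, and 11.0% of genes lower (2030) in IFNg against Dexa. All 12 libraries over the genes listed whole, where fewer genes are tested and Klf9, Klf13 and Klf15 are missing, gave 15.5% of genes higher and 16.4% lower in IFNg against Ctr, 1.42% and 0.447% (92 and 29) in Dexa against Ctr, and 19.1% and 18.6% in IFNg against Dexa. The Klf genes called there were 2 higher and 1 lower, 0 higher, and 2 higher and 1 lower in the same order. The effective-length offset called 2 Klf genes higher in IFNg against Dexa.

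With 1 library left out in turn, 0.397% to 1.78% of genes (73 to 327) were called higher in Dexa against Ctr, the fewest without Dexa replicate 2, and 99 to 130 without Dexa replicate 1 or Ctr replicates 1, 2 or 4. Those called lower ranged from 0.0381% to 0.397% (7 to 73), with 7 to 27 without Ctr replicates 1, 2 or 4, any Dexa library or IFNg replicate 2, and 73 without IFNg replicate 1. Genes called lower ranged from 10.4% (without Ctr replicate 2) to 15.7% in IFNg against Ctr and from 10.9% (without Dexa replicate 2) to 16.5% in IFNg against Dexa. Klf genes called lower in IFNg against Ctr ranged from 1 to 3, with 1 without Ctr replicates 2, 3 or 4 or IFNg replicates 2, 3 or 4, and those called higher in Dexa against Ctr from 1 to 2, with 2 without IFNg replicate 1.

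Among 525 values of single Klf genes, 468 kept direction and call, 25 lost the call, 11 gained one and 21 changed sign. The sign changed for values not called, all of Klf3, Klf4, Klf15 and Klf16. On the log2 scale, Klf3 in IFNg against Ctr became -0.0205 with the length offset. In IFNg against Dexa, Klf4 became -0.0561 without the block by edgeR, -0.0194 by DESeq2 with it, -0.0680 by DESeq2 without it and -0.0198 with only 2 groups, and Klf16 became -0.0111 with all 12 libraries. With 1 library left out in turn, the log2FC in IFNg against Ctr ranged from -0.0196 to 0.0831 for Klf3 and from -0.25 (without Ctr replicate 3) to 0.21 (without Ctr replicate 1) for Klf4. In Dexa against Ctr, Klf4 ranged from -0.51 (without Dexa replicate 4) to 0.17 (without Ctr replicate 1). In IFNg against Dexa, the ranges were -0.0750 to 0.0086 for Klf3, -0.18 to 0.44 for Klf4, -0.32 to 0.0505 for Klf15 and -0.0876 to 0.15 for Klf16. The cause of these changes was not tested.

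Klf6 in IFNg against Ctr was called under all 20 alternatives (log2FC 0.62 to 0.72). Klf9 in Dexa against Ctr was called under 18 of the 19 alternatives that list it (1.23 to 1.46). With 3 Dexa libraries in the fits, the small differences of Klf6 and Klf7 in Dexa, whose single intervals lie just above 0, did not pass the adjustment over all genes, although Klf6 did when only the 2 groups were fitted (adjusted p = 0.0246). The 4 to 32 reads of Klf4 and 1 to 11 of Klf2 limit any statement on them.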
